A study of Sus scrofa with 6 samples.

Results

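The 69 genes described here carry the names of leukocyte surface molecules and of the antigen presentation machinery, and they were measured in the left atria of 6 pigs. They were chosen by symbol alone, as every gene named CD with a digit, SLA- (the swine leukocyte antigens, the pig's major histocompatibility complex, MHC), FCGR or FCER (receptors for the constant part of antibodies), C1Q, TAP1 or TAP2, together with B2M and PTPRC. They are 69 of the 6765 genes that the array's annotation names by a probe set with a single symbol, and they hold 114 of 23999 probe sets that are not controls. A further 8 probe sets whose several symbols include a name of this kind were left out. CD36, CD44, CD68, CD79A, TAP2, C1QB, FCER1A and SLA-1 have no single-symbol probe set in this annotation and were not analysed here.

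All 6 animals were male Lanyu miniature pigs aged 18 months. NC animals (n = 2) were normal controls with no surgery recorded, MR animals (n = 2) had mitral regurgitation through a 2.8 mm hole made in the posterior mitral leaflet and were examined 12 months later, and MRV animals (n = 2) had the same lesion and received valsartan at 3.43 mg per kg per day, starting 1 week before surgery. Valsartan blocks the type 1 angiotensin II receptor. Regurgitation and the surgery that made it cannot be told apart against NC. Values are intensities of an Affymetrix porcine array, 1 array per animal, and animals are named by group and number.

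MHC class I molecules sit on nearly all nucleated cells and show peptides from inside the cell to CD8 T cells. The transporter TAP carries those peptides into the endoplasmic reticulum, where they bind a heavy chain paired with beta-2 microglobulin (B2M). MHC class II molecules, found mainly on dendritic cells, macrophages and B cells, show peptides from engulfed material to CD4 T cells, and the invariant chain CD74 and the DM proteins control their loading. The heart holds resident macrophages, which clear dying cells and debris with scavenger receptors, Fc receptors and complement C1q, whereas many CD molecules, such as the tetraspanins, are made by heart muscle, vessel and connective tissue cells too.

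The names therefore cover several kinds of gene, and these differed in whether they were measurable. Of the 69 genes, 47 passed the filter used for testing, a mean of 60.8 intensity units, and 22 had a mean below 60. All 7 class I genes, all 8 class II genes, both C1q subunits, all 5 tetraspanins and all 5 adhesion and other surface proteins passed. The label of leukocyte genes was least borne out by the lymphocyte markers among them: 9 of 11 T and NK cell genes (CD2, CD247, CD27, CD3D, CD3E, CD3G, CD4, CD40LG and CD69) had means from 21.0 to 58.5, and the 3 B cell genes (CD180, CD38 and CD79B) from 18.3 to 35.6. Lymphocyte markers outside the 69 genes were mixed. GNLY and JCHAIN had means of 224 and 171, and LCK, PRF1 and KLRK1 had means of 36.4, 45.2 and 21.5. PTPRC, which encodes the phosphatase CD45 carried by nearly all leukocytes, read between 16 and 19 on all 6 arrays, on its 1 probe set. It was the dimmest of 8 measured pan-leukocyte markers, of which 6 had a mean of at least 60. Among them, CORO1A, SPI1 and TYROBP had means of 288, 164 and 142, while ITGB2 had a mean of 46.7. At the edge of the limit, CD8A lay just inside with a mean of 62.4, and CD3D and CD300C lay just outside with 58.5 and 58.0.

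**Figure D1:**
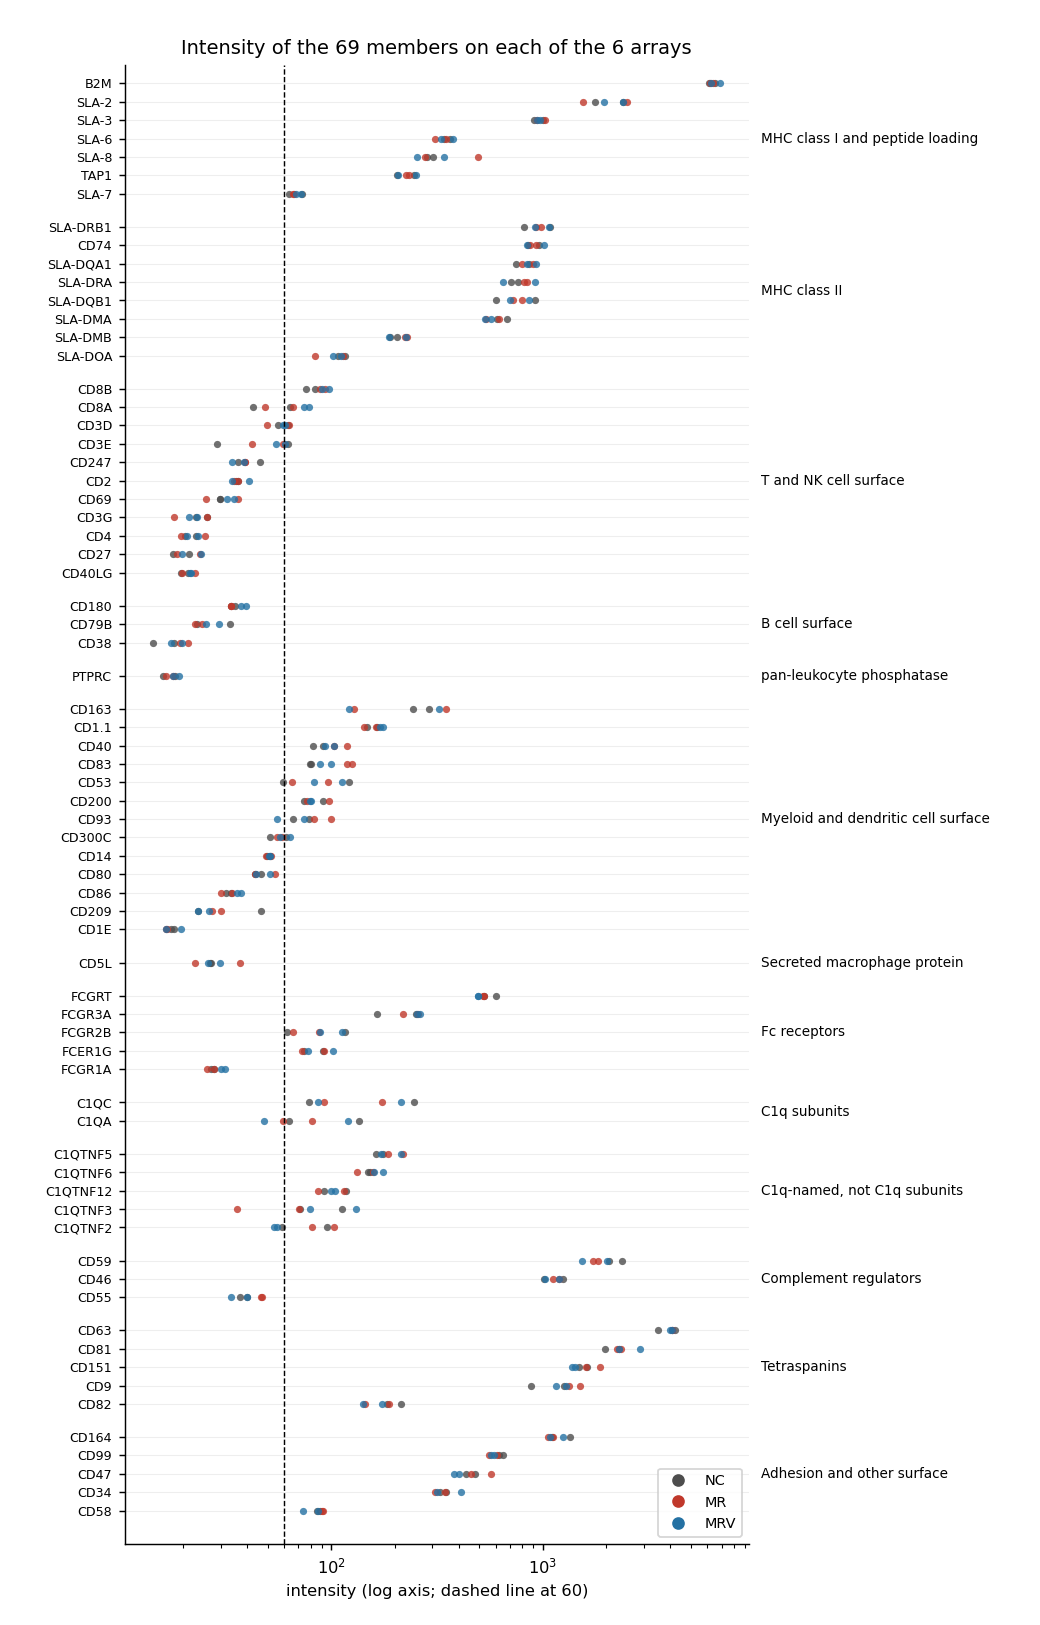
Intensity of each of the 69 genes on the 6 arrays, on a log axis, grouped by role and coloured by group, with a dashed line at 60. Each point is 1 animal; the class I and class II genes all lie to the right of the line, while PTPRC, the B cell genes and 9 of the 11 T and NK cell genes have means to its left.

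The remaining genes with means below 60 were 6 of the 13 myeloid and dendritic cell genes (CD14, CD1E, CD209, CD300C, CD80 and CD86, from 17.5 to 58.0), the secreted macrophage protein CD5L (28.2), the high-affinity IgG receptor FCGR1A (28.4) and the complement regulator CD55 (40.7). CD14, the monocyte receptor that helps bind lipopolysaccharide, read from 49.4 to 52.1. The co-stimulatory ligands CD80 and CD86 read from 43.6 to 54.5 and from 30.2 to 37.3. A low intensity on this array does not show that a transcript was absent, and in pieces of whole tissue fewer cells of a type and less RNA per cell cannot be told apart.

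Array medians were alike, from 90.2 to 93.4. The atrial natriuretic peptide gene NPPA read from 18414 to 20170 and the atrial light chain MYL4 from 21034 to 21842, so both were bright on all 6 arrays. Of the other measured atrial markers, SLN read 8660 and 10033 in NC pigs, 5369 and 9876 in MR pigs, and 8949 and 8530 in MRV pigs. GJA5 read 438 and 345, 320 and 584, and 268 and 291. SLN and the sum of the 4 atrial markers (46095) were lowest in MR1. The ventricular light chain gene MYL2 read 203 and 325 in NC pigs, 10693 and 2318 in MR pigs, and 152 and 954 in MRV pigs. Across the 14399 tested probe sets, which are not independent of each other, the correlation was r = 0.959 within NC and r = 0.981 within both MR and MRV, and NC2 stood nearer to MRV2 (r = 0.984) than to NC1. A control probe set for 28S ribosomal RNA read 117 and 468 in NC pigs, 187 and 280 in MR pigs, and 341 and 559 in MRV pigs. The 3′ over 5′ actin ratio, a sign of RNA degradation when high, was 1.61 and 1.91 in NC pigs, 1.44 and 1.7 in MR pigs, and 2.3 and 1.87 in MRV pigs.

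None of the 47 tested genes differed between groups past the threshold, a limma p of 0.05 after Benjamini-Hochberg adjustment over all 14399 tested probe sets. For MR minus NC, 24 genes were higher and 23 lower, and their median log2 difference was 0.022, beside 0.0076 over the 5407 genes tested. The share of all genes past the adjusted threshold was 0.0185%, which was 1 gene and no member of this list. At an unadjusted limma p under 0.05 stood 2 of the 47 genes (CD83 and CD40), where the share of all genes was 4.48%. Both MR arrays lay above both NC arrays for 9 of the 47 genes and below them for 4, where 15.7% and 12.4% of all genes did so. The share for the 47 genes was thus close to that of the whole array.

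For MRV minus MR, which asks how the treated atria differed from the untreated ones with the same lesion, 24 genes were higher and 23 lower, with a median log2 difference of 0.021 beside -0.031 over all genes. Here 0% of all genes passed the adjusted threshold, and at an unadjusted limma p under 0.05 stood 3 of the 47 genes (CD83, C1QTNF2 and CD47), against 7.88% of all genes. Both MRV arrays lay above both MR arrays for 6 of the 47 genes, against 15.0% of all genes, and below them for 9, against 28.6%. For MRV minus NC, 28 genes were higher and 19 lower (median 0.032, all genes -0.023), 0% of all genes passed the adjusted threshold, and 0 of the 47 genes had an unadjusted limma p under 0.05, against 5.62% of all genes. The arrays did not overlap for 7 genes that were higher in MRV, against 13.3% of all genes, and for 8 that were lower, against 21.7%. In both comparisons with MRV, the counts for the 47 genes thus stood near or under the share of all genes. The comparisons share arrays, so their values for a gene are not independent of each other.

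**Figure D2:**
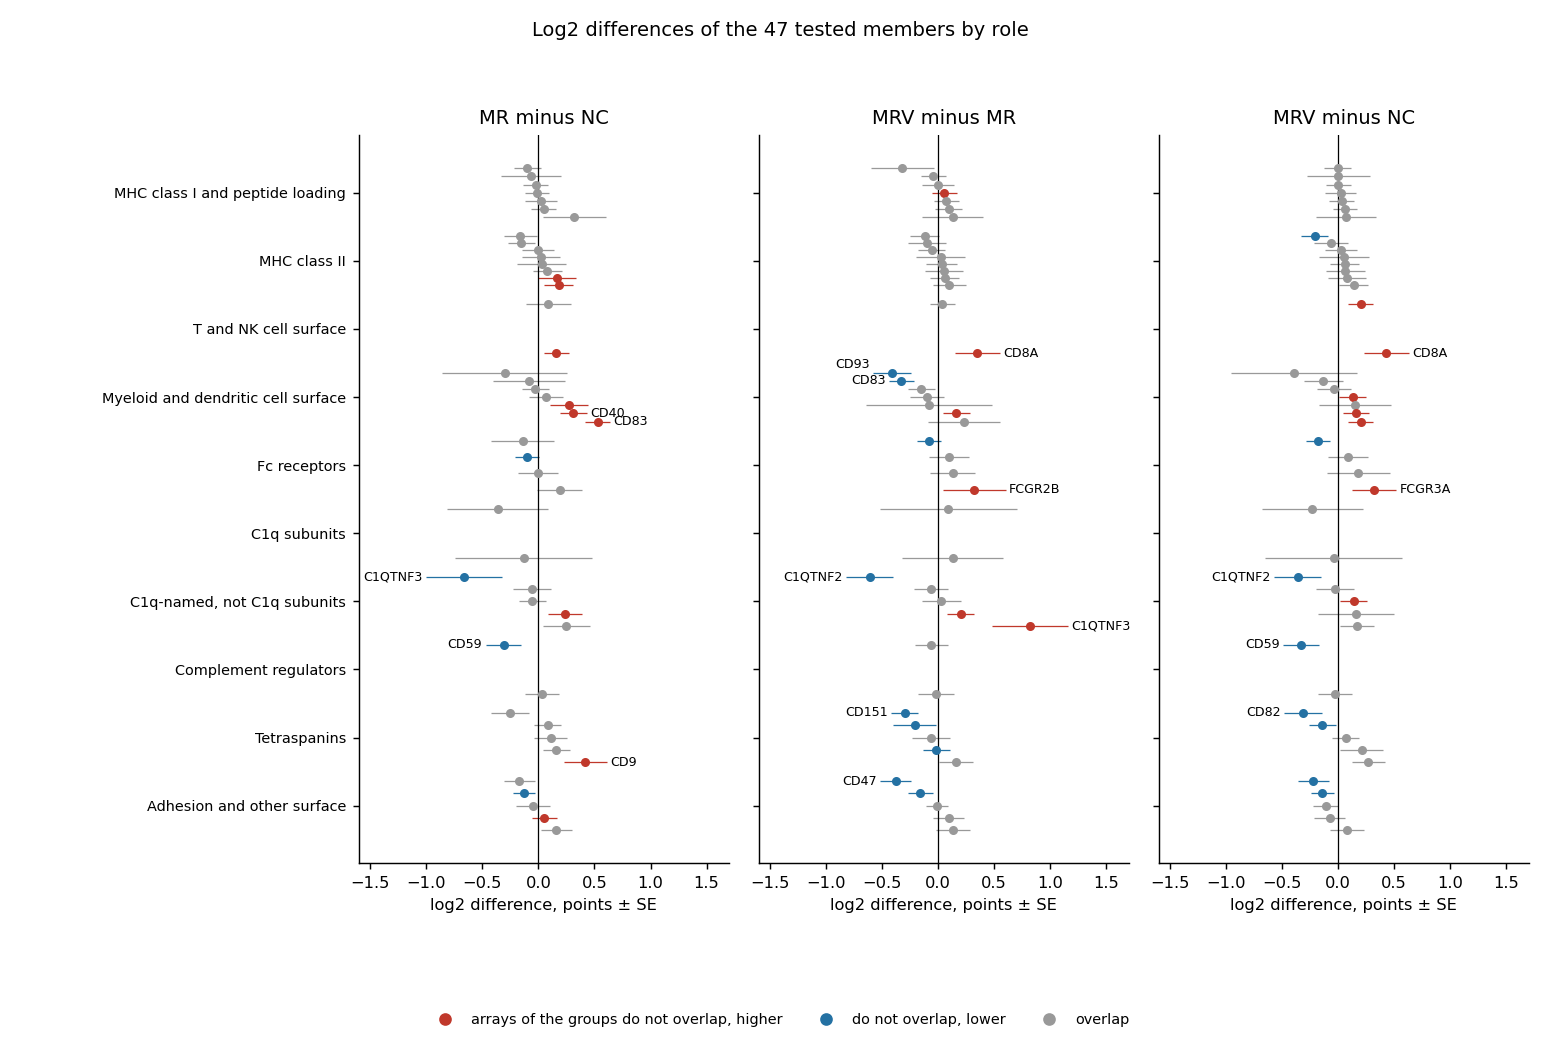
Log2 differences (horizontal axis, points with standard errors) of the 47 tested genes by role for MR minus NC, for MRV minus MR and, at right, for MRV minus NC, coloured by whether the arrays of the compared groups overlap. Genes with no overlap and a difference of at least 0.3 in size are named; no gene passed the adjusted threshold, and the medians of the class I and class II groups lie between -0.011 and 0.056.

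Class I genes differed little between groups. B2M read 6501 and 6106 in NC pigs, 6348 and 6158 in MR pigs, and 6244 and 6916 in MRV pigs, and its log2 difference was -0.011 for MR minus NC (SE 0.11) and 0.072 for MRV minus MR (SE 0.11). SLA-3, a classical heavy chain, read 1000 and 908, 944 and 1028, and 970 and 941 in the same order of groups. TAP1, a chain of the peptide transporter, read 246 and 204, 232 and 225, and 207 and 251. On these probe sets the groups overlapped in every comparison, but not on all others of the same genes. A second tested TAP1 probe set read 87.1 and 95.5, 95.9 and 96.4, and 112 and 96.5, without overlap in any comparison, at log2 differences of 0.065 for MR minus NC, 0.10 for MRV minus MR and 0.16 for MRV minus NC. The remaining TAP1 probe set, below the filter, had the same order of groups.

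SLA-2, another classical heavy chain, varied more between animals of a group than between groups, at 2406 and 1766 in NC pigs, 2508 and 1547 in MR pigs, and 1953 and 2399 in MRV pigs. Its probe set is of a type that can hybridise to related transcripts, and the class I heavy chains are close in sequence, so their signals may not be separate. The non-classical genes SLA-6 and SLA-7 read from 310 to 376 and from 63.3 to 73.0. SLA-8 stood at 302 and 285 in NC pigs, 278 and 492 in MR pigs, and 340 and 254 in MRV pigs. The high value of SLA-8 came from MR2 alone, and a second SLA-8 probe set was also highest there, at 318 against 164 to 241 on the other arrays. Over the 7 class I genes the median log2 difference was -0.011 for MR minus NC, 0.056 for MRV minus MR and 0.022 for MRV minus NC, and SLA-7 was the 1 gene without overlap in any of them (higher in MRV than in MR).

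B2M was measured by 9 probe sets, more than any other gene here, and they did not give the same answer. The values above come from the probe set with the highest mean of log2 values. Another read 2157 and 9440 in NC pigs, 4384 and 5975 in MR pigs, and 6814 and 9738 in MRV pigs, which put the 6 arrays in the same order as the 28S control. A further one read 882 and 6018 in NC pigs, 676 and 2907 in MR pigs, and 380 and 743 in MRV pigs. Beside it the red cell gene ALAS2, an enzyme of haem synthesis, read 70.8 and 214, 82.3 and 135, and 59.3 and 81.9. The other red cell markers measured did not both share that order. HBB, the brightest, went the other way in every group, at 345 and 205, 328 and 273, and 295 and 251. AHSP, with a mean of 32.2, read 24.1 and 50, 27 and 40.2, and 26 and 26.

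Across the 9 B2M probe sets the log2 difference ran from -0.71 to 0.18 for MR minus NC, from -1.37 to 0.67 for MRV minus MR and from -2.09 to 0.85 for MRV minus NC. In the other 7 probe sets the highest array was between 1.13 and 1.46 times the lowest, beside 4.52 and 15.8 times in these. Among those 7, a probe set with values of 846 and 911 in NC pigs, 778 and 790 in MR pigs, and 767 and 768 in MRV pigs did not overlap in any comparison (-0.16 for MR minus NC and -0.19 for MRV minus NC). A dimmer one, at 309 and 326, 335 and 391, and 300 and 268, did not overlap in any comparison either. Its differences were 0.18 for MR minus NC, the other direction, -0.33 for MRV minus MR and -0.15 for MRV minus NC. Another, at 576 and 522, 508 and 567, and 486 and 432, was lower in MRV without overlap (-0.22 from MR and -0.25 from NC). The array order of the 28S control was also that of a CD46 probe set that does not represent the gene (55.3 and 106, 78.7 and 88.6, 92.9 and 161). In all, 2 of the 71 tested probe sets of these genes (2.82%) had that order, against 1.01% of all 14399. The part of ribosomal or red cell signal in these values was not tested.

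**Figure D3:**
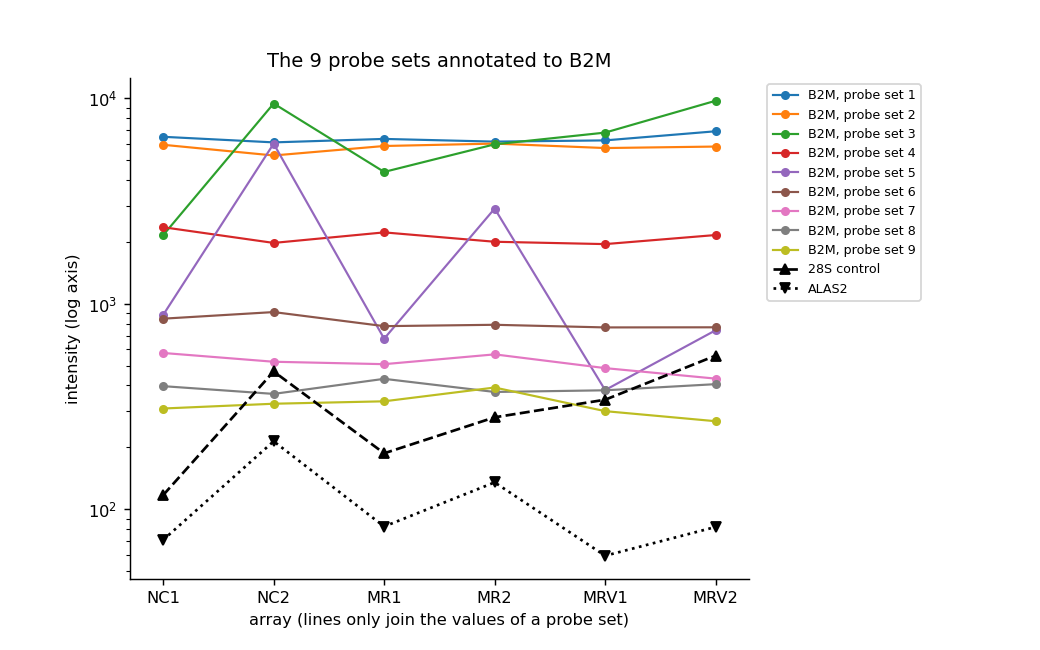
Intensity of the 9 B2M probe sets on each array (log axis), with the 28S ribosomal control and ALAS2 as black lines. Probe set 1, used for B2M, stays between 6106 and 6916, while probe set 3 follows the order of the 28S control and probe set 5 is highest in NC2, at 6018.

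Class II genes also differed little. CD74, the invariant chain, read 960 and 856 in NC pigs, 933 and 875 in MR pigs, and 840 and 1015 in MRV pigs, with log2 differences of -0.0045 (SE 0.14) and 0.031 (SE 0.14) for MR minus NC and MRV minus MR. SLA-DRA, the DR alpha chain, read 761 and 711, 839 and 818, and 649 and 914. Both MR arrays were thus above both NC arrays for SLA-DRA, by a log2 difference of 0.17 (SE 0.17), and the MRV arrays lay on either side of them. SLA-DRB1, the DR beta chain, read 1079 and 814 in NC pigs, 928 and 977 in MR pigs, and 918 and 1068 in MRV pigs.

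Of the DQ chains, SLA-DQA1 ranged from 749 to 925 over the 6 arrays, and SLA-DQB1 from 603 to 919 with both extremes in NC. MR2 was 1.13 times MR1 for SLA-DQA1 and 0.902 times for SLA-DQB1. SLA-DMB, a chain of the DM loading factor, read 205 and 189 in NC pigs, 228 and 224 in MR pigs, and 187 and 226 in MRV pigs, and was the other class II gene with both MR arrays above NC (log2 difference 0.18, SE 0.13). Its partner SLA-DMA read 678 and 610, 538 and 619, and 572 and 536, and both MRV arrays were below both NC arrays (log2 difference -0.21, SE 0.12). A second SLA-DMA probe set went the other way for MRV minus NC, at 0.10 with overlapping arrays, and for MR minus NC, at 0.18 against -0.15. SLA-DOA, a regulator of DM, read from 84.0 to 116. Over the 8 class II genes the median log2 differences were 0.026 for MR minus NC, 0.026 for MRV minus MR and 0.056 for MRV minus NC.

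Genes that act with these molecules were described from a list of antigen processing genes, of which 15 of 15 were tested and 0 passed the threshold in any comparison. In MR 10 were higher and 5 lower than in NC (median log2 difference 0.083), in MRV 7 were higher and 8 lower than in MR (median -0.00045), and in MRV 8 were higher and 7 lower than in NC (median 0.019). PSME1, a subunit of the proteasome activator PA28, read 765 and 730 in NC pigs, 855 and 827 in MR pigs, and 703 and 771 in MRV pigs. The lysosomal protease gene CTSB read 3638 and 3251, 4253 and 3649, and 3107 and 3391. For both, the MR arrays lay above all others.

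Of 12 interferon-linked regulators, all were tested and 0 passed the threshold. IFNGR1, the ligand-binding chain of the interferon gamma receptor, read 419 and 387 in NC pigs, 478 and 608 in MR pigs, and 354 and 387 in MRV pigs. Its log2 difference was 0.41 for MR minus NC (limma adjusted p = 0.999955) and -0.53 for MRV minus MR (limma adjusted p = 0.584). The medians of this list were 0.0055 for MR minus NC, 0.034 for MRV minus MR and 0.0079 for MRV minus NC. CIITA, the master regulator of class II transcription, read 88.8 and 98.3 in NC pigs, 103 and 97.1 in MR pigs, and 104 and 104 in MRV pigs.

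CD83 gave the clearest separation of groups among the 69 genes. It marks mature dendritic cells and activated lymphocytes and stabilises class II and CD86 on their surface. It read 80.0 and 79.7 in NC pigs, 125 and 119 in MR pigs, and 88.3 and 99.7 in MRV pigs. The 3 groups did not overlap, with MR highest and MRV between. The log2 difference was 0.53 for MR minus NC (SE 0.11, limma adjusted p = 0.999955) and -0.33 for MRV minus MR (SE 0.11, limma adjusted p = 0.627). Unadjusted, these p-values were 0.00291 and 0.0225 by limma.

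The second CD83 probe set lay below the filter, at 25.9 and 27.9, 30.4 and 29.2, and 26.1 and 27.0, in the same order of groups. Without MR1, the array with the highest MYL2 value, the CD83 difference from NC was 0.49. MYL2 was also higher in MR2 (2318) than in the NC pigs (203 and 325), so leaving out MR1 does not remove the MYL2 difference. The sums of some other cell type markers were also highest in the MR group. The summed Schwann cell markers, 2 of 4 of them measured, were 591 and 549 in NC pigs, 686 and 675 in MR pigs, and 452 and 597 in MRV pigs, and the ventricular sum (2 of 3 measured) was 290 and 392, 10782 and 2405, and 226 and 1052. S100B made up most of the Schwann cell sum and MYL2 most of the ventricular sum. The other measured marker of each followed in part or not at all. SOX10 read 55.3 and 66.9, 74 and 74.6, and 60.7 and 78.4 in NC, MR and MRV pigs. Both MR arrays were thus above both NC arrays for SOX10, but the MRV arrays lay on either side of the MR arrays. HEY2 read 87 and 67.3, 88.5 and 86.4, and 74.8 and 98.2, with all groups overlapping. The part of these markers in the CD83 values was not tested.

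CD40, the receptor through which T cells activate antigen-presenting cells, read 81.7 and 91.8 in NC pigs, 103 and 119 in MR pigs, and 103 and 93.5 in MRV pigs. Both MR arrays were above NC (log2 difference 0.31, SE 0.12, limma adjusted p = 0.999955), and so were both MRV arrays (0.16, SE 0.12). A second tested CD40 probe set differed by 0.47 for MR minus NC, also without overlap. Its ligand gene, CD40LG, read from 19.4 to 22.7 throughout and was not tested.

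CD93, a lectin-like receptor of endothelium and myeloid cells, read 78.7 and 66.2 in NC pigs, 99.4 and 82.5 in MR pigs, and 74.6 and 55.4 in MRV pigs. Both MRV arrays were below both MR arrays (log2 difference -0.41, SE 0.17, limma adjusted p = 0.687), by -0.23 without MRV2. The second CD93 probe set gave 0.08 for that comparison and -0.18 for MR minus NC, where the main one gave 0.27. For CD93 the direction therefore depended on the probe set.

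**Figure D4:**
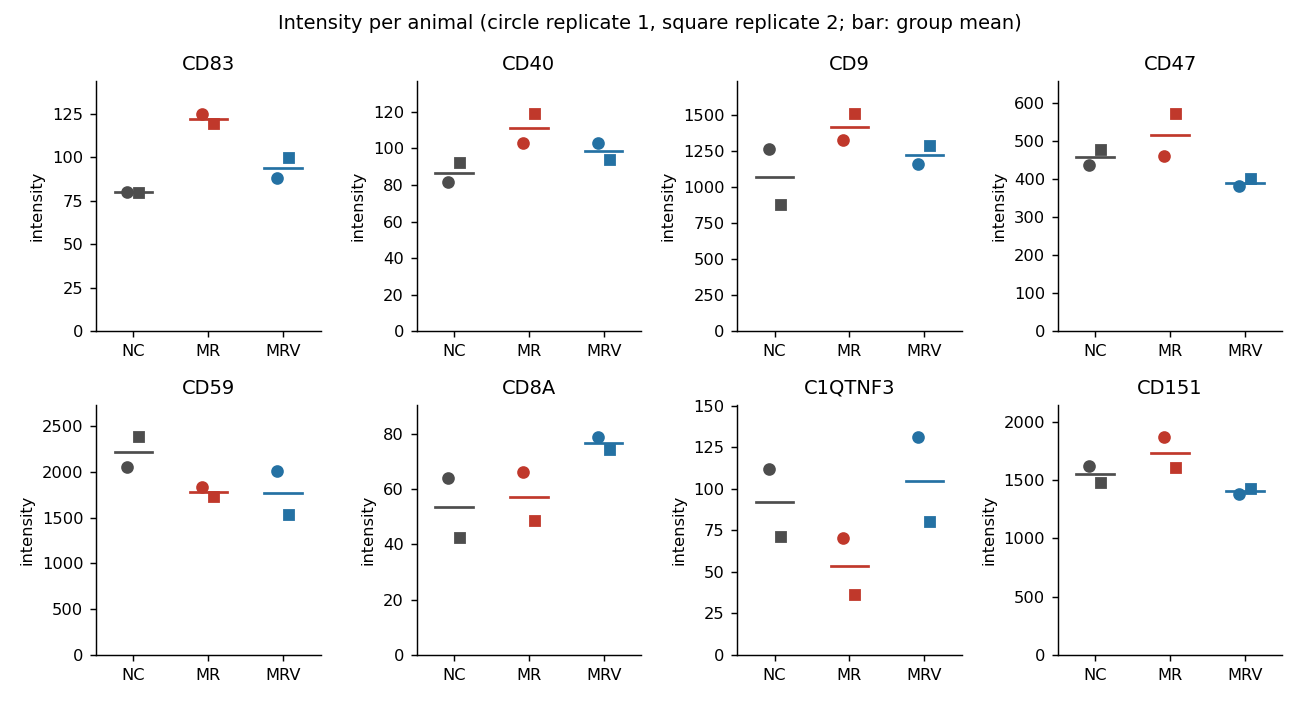
Intensity per animal for 8 genes named in the text (vertical axes start at 0; circle, replicate 1; square, replicate 2; bar, group mean, n = 2). The 3 groups are separate for CD83, with MR at 125 and 119, and both MRV animals are below all others for CD47 and CD151.

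The other myeloid genes differed mainly between animals of the same group. CD163, the macrophage receptor for haemoglobin bound to haptoglobin, read 291 and 244 in NC pigs, 128 and 347 in MR pigs, and 121 and 324 in MRV pigs, so that MR1 and MRV1 lay far below the other 4 animals. Its log2 difference was -0.30 for MR minus NC (SE 0.56) and -0.084 for MRV minus MR (SE 0.56), and the SE exceeded the difference in both. A second CD163 probe set was again low in MR1 and MRV1 (54.4 and 62.5) but also in MRV2 (63.8), with 84.4 to 122 on the other arrays. CD53, a tetraspanin of leukocytes, read 121 and 59.1, 65.3 and 96.6, and 82.5 and 112. CD1.1, a lipid-presenting CD1 molecule, read 164 and 148, 163 and 143, and 175 and 170, with both MRV arrays above the others (0.16 from MR and 0.13 from NC, SE 0.12 each). CD200, a ligand that restrains myeloid cells, had a mean of 83.4 and overlapped in every comparison. Over the 7 tested genes of this role, the median log2 difference was 0.068 for MR minus NC, -0.10 for MRV minus MR and 0.13 for MRV minus NC.

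C1q, the recognition molecule of the classical complement pathway, is made largely by macrophages. C1QC read 245 and 78.7 in NC pigs, 92.9 and 174 in MR pigs, and 86.2 and 214 in MRV pigs. C1QA read 136 and 62.9, 59.3 and 81.1, and 48.1 and 120. In each group 1 animal read clearly above the other, and it was the same animal for both subunits. The groups overlapped in every comparison, and the SE of the group differences was 0.61 for C1QC and 0.45 for C1QA. The C1QA and C1QC genes adjoin in the RefSeq annotation of assembly Sscrofa11.1, with 0 protein-coding genes between them among those listed.

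Fc receptor genes other than FCGR1A were tested. FCGR3A, the low-affinity IgG receptor of NK cells and macrophages, read 252 and 165 in NC pigs, 218 and 256 in MR pigs, and 255 and 264 in MRV pigs. Both MRV arrays lay above NC (log2 difference 0.32, SE 0.20, limma adjusted p = 0.907), and without NC2 that difference was 0.036. FCGR2B, the inhibitory IgG receptor, read 116 and 62.0, 66.2 and 87.2, and 112 and 88.1, with MRV above MR by 0.32 (SE 0.28, limma adjusted p = 0.823), and by 0.16 without MR1 or 0.18 without MRV1. FCER1G, the signalling chain that several Fc receptors share, read from 73.1 to 102 with all groups overlapping.

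FCGRT, the neonatal Fc receptor, which recycles IgG and albumin in endothelium and other cells, was the steadiest of the Fc receptor genes. It read 601 and 530 in NC pigs, 521 and 529 in MR pigs, and 496 and 495 in MRV pigs. The groups did not overlap in any comparison, though the differences were small, at -0.10 for MR minus NC (SE 0.11), -0.081 for MRV minus MR (SE 0.11) and -0.18 for MRV minus NC (SE 0.11, limma adjusted p = 0.905).

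The animal that read higher for C1q also read higher for several other macrophage genes, but not for all of them. This pattern was chosen after the values had been seen and carries no test: NC1 above NC2, MR2 above MR1, and MRV2 above MRV1. It held for 15 of the 47 tested genes (31.9%) and for 13.5% of all 5407 genes, and the opposite order held for 2 of the 47 (4.26%) and for 5.81% of all genes. Among the 13 tested genes of the myeloid, Fc receptor and C1q roles it held for 6 (C1QA, C1QC, CD163, CD53, FCER1G and FCGR3A). The ratio of the higher to the lower animal was 3.11, 1.87 and 2.48 for C1QC in NC, MR and MRV, and 1.19, 2.71 and 2.69 for CD163.

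Leukocyte genes outside the 69 were set beside these. Of 22 such genes with a probe set 11 were tested, and 6 of them had the same order of animals (AIF1, LAPTM5, MRC1, TLR2, TYROBP and VSIG4). MARCO, a scavenger receptor on the macrophage marker list, had the opposite order, at 140 and 153 in NC pigs, 143 and 131 in MR pigs, and 128 and 116 in MRV pigs, and the CD14 probe set described above was flat. A second, dimmer CD14 probe set read 38.9 and 43, 39.4 and 46.4, and 34.6 and 48.1. It had the order of the pattern in MR and MRV but not in NC. VSIG4, a complement receptor of tissue macrophages, read 171 and 88.4 in NC pigs, 79.9 and 140 in MR pigs, and 78.7 and 152 in MRV pigs. The mannose receptor gene MRC1 read 163 and 80.7, 74.3 and 124, and 82.7 and 130. Between groups, 0 of the 11 passed the threshold, and their median log2 difference was -0.021 for MR minus NC, 0.063 for MRV minus MR and -0.032 for MRV minus NC.

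Summed over the macrophage marker list, of which 7 of 10 genes were measured and 6 had a mean of at least 60, the intensity was 1127 and 726 in NC pigs, 624 and 984 in MR pigs, and 592 and 1049 in MRV pigs. The summed fibroblast markers (4 of 6 measured) had the same order, at 7386 and 5095, 5604 and 6472, and 6089 and 7067. The sum of the endothelial markers (6 of 6 measured) did too, at 3331 and 3159, 3209 and 3527, and 2867 and 3341. That of the cardiomyocyte markers (5 of 7 measured) had the opposite order, at 66359 and 68042, 69588 and 67534, and 68726 and 66962. Single markers mostly did not share the order of their sum in every group. Only DCN and LUM did for fibroblasts, TEK and CD34 for endothelium, and TNNT2 for cardiomyocytes. For example, PECAM1 read 996 and 1118 and RYR2 4251 and 3411 in NC pigs. The neutrophil markers, 4 of 6 measured, summed to between 89.5 and 101 and 0 of them reached a mean of 60. The part of the cell makeup of each piece of atrium in these values was not tested.

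**Figure D5:**
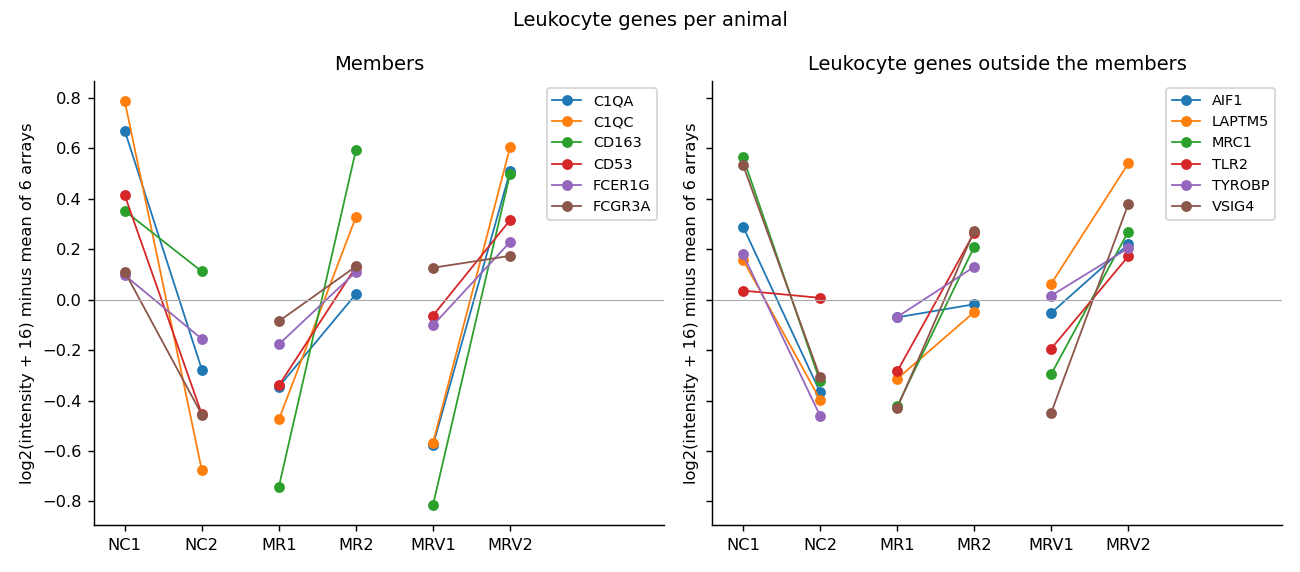
Log2(intensity + 16) of 6 genes of the list (left) and 6 other leukocyte genes (right) on each array, relative to the gene's mean over the 6 arrays; lines join the animals of a group. The 12 genes were chosen for being higher in NC1 than NC2, in MR2 than MR1 and in MRV2 than MRV1, so the direction of the lines is fixed by that choice and the plot shows their size.

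Differences between single animals of a group were set beside those between group means. Means of 2 animals vary less than single animals, so the former tend to be larger even where groups do not differ. The largest log2 difference between the animals of a group exceeded the largest difference between group means in 36 of the 47 genes (76.6%) and in 71.9% of all genes. The median of the former was 0.30 and of the latter 0.18 over the 47 genes, against 0.26 and 0.18 over all genes. The highest array was at least 2 times the lowest for 5 of the 47 (C1QA, C1QC, C1QTNF3, CD163 and CD53), or 10.6%, beside 8.3% of all genes. The highest array was under 1.2 times the lowest for another 5 (B2M, CD63, CD99, SLA-3 and SLA-7), which was 10.6% of the 47 genes beside 22.2% of all genes.

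T cell genes gave values near the limit of measurement. CD8A, the co-receptor chain of cytotoxic T cells, read 64.2 and 42.5 in NC pigs, 66.3 and 48.4 in MR pigs, and 78.8 and 74.4 in MRV pigs. Both MRV arrays were above the other 4, with log2 differences of 0.35 from MR (SE 0.20, limma adjusted p = 0.757) and 0.43 from NC (SE 0.20, limma adjusted p = 0.905), which became 0.17 without MR2 and 0.21 without NC2. CD8B, the beta chain, whose gene adjoins that of CD8A in the same annotation, read 75.9 and 83.9, 93.6 and 88.5, and 97.1 and 90.7, with both MR and both MRV arrays above NC (0.16 and 0.20, SE 0.11 each).

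The T cell receptor subunits did not share that order. CD3E read 62.4 and 28.8 in NC pigs, 59.2 and 42.1 in MR pigs, and 60.2 and 54.9 in MRV pigs, and CD4, the co-receptor of helper T cells, stayed between 19.5 and 25.4. CD2, an adhesion molecule of T and NK cells, read from 34.1 to 41.0. The summed T cell markers, 5 of 8 measured and 0 with a mean of 60, were 222 and 185 in NC pigs, 220 and 178 in MR pigs, and 213 and 214 in MRV pigs, overlapping in every comparison.

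Complement regulators protect host cells from complement attack. CD59, which blocks the membrane attack complex, read 2054 and 2378 in NC pigs, 1832 and 1725 in MR pigs, and 2015 and 1526 in MRV pigs. Both NC arrays were above all others, with log2 differences of -0.31 for MR minus NC (SE 0.16, limma adjusted p = 0.999955) and -0.33 for MRV minus NC (SE 0.16, limma adjusted p = 0.905). Without NC2 the former was -0.21, and without MRV2 the latter was -0.13. A second CD59 probe set overlapped for MR minus NC (-0.009) and read 0.27 for MRV minus NC, the other direction. CD46, a cofactor for cleavage of C3b and C4b, read 1244 and 1018, 1115 and 1192, and 1022 and 1195 with all groups overlapping.

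CD55, the decay-accelerating factor, was dim on all of its 5 probe sets, and its values were picked out after they had been seen. The probe set with the highest mean read 40.1 and 37.2 in NC pigs, 46.4 and 46.9 in MR pigs, and 40.2 and 33.5 in MRV pigs. The next read 24.4 and 18.7, 39.3 and 44.9, and 21.6 and 19.7, and the third 19.8 and 17.5, 37.2 and 36.4, and 25.5 and 17.9. Both MR arrays were above both NC arrays on 5 of 5 probe sets, and both MRV arrays below both MR arrays on 4 of 5. With no filter on intensity, the probe set that represents CD55 differed by 0.20 for MR minus NC and by -0.25 for MRV minus MR (SE 0.09 each), and the fifth by 0.065 and 0.028. The widest differences were on the second probe set, at 0.63 for MR minus NC (SE 0.11, limma adjusted p = 1) and -0.66 for MRV minus MR (SE 0.11, limma adjusted p = 0.51). The probe sets of a gene share the same RNA and are not replicates.

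Tetraspanins organise other proteins in the membrane of most cells. CD9 read 1261 and 877 in NC pigs, 1325 and 1507 in MR pigs, and 1156 and 1284 in MRV pigs. Both MR arrays were above the other 4 (log2 difference from NC 0.42, SE 0.19, limma adjusted p = 0.999955), and without NC2 the difference from NC was 0.16. CD151, a partner of laminin-binding integrins, read 1621 and 1476, 1867 and 1605, and 1379 and 1426. Both MRV arrays were below all others, by -0.30 from MR (SE 0.12, limma adjusted p = 0.687), and by -0.19 without MR1.

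CD63, a protein of late endosomes and lysosomes, read from 3514 to 4211, and CD81, another broadly expressed tetraspanin, from 1968 to 2877, with its highest value in MRV2. CD82 read 214 and 184 in NC pigs, 144 and 188 in MR pigs, and 142 and 174 in MRV pigs, so both MRV arrays were below NC (-0.31, SE 0.17, limma adjusted p = 0.905), or by -0.17 without MRV1. Its second probe set gave 0.14 for that comparison.

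Of the adhesion and other surface proteins, CD47, the signal that holds off phagocytes through SIRP alpha, read 436 and 477 in NC pigs, 460 and 572 in MR pigs, and 381 and 400 in MRV pigs. Both MRV arrays were below all others, by -0.38 from MR (SE 0.14, limma adjusted p = 0.655), and by -0.23 without MR2. The other CD47 probe sets gave -0.16 and 0.53 for that comparison, the last of them one that nearly followed the 28S control (116 and 449, 193 and 323, 325 and 415).

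CD34, a sialomucin of endothelium and progenitor cells, read from 311 to 409, and CD164, another sialomucin, from 1056 to 1349. CD99 read 651 and 622 in NC pigs, 558 and 605 in MR pigs, and 586 and 569 in MRV pigs, with both NC arrays above all others (-0.13 for MR minus NC, SE 0.10). CD58, the ligand of CD2, read 85.3 and 88.9, 90.2 and 91.7, and 73.3 and 86.2. Beside the genes that were lower in MRV, the summed smooth muscle markers (3 of 4 measured) were also lower there, at 4983 and 3916, 4168 and 3766, and 3210 and 3608, as was the 3′ actin control (13511 and 13135, 15543 and 14861, 7859 and 10976). Of these markers, CNN1 and TAGLN were lower in both MRV pigs than in all others. ACTA2, the brightest, overlapped, at 3016 and 2191, 2300 and 2018, and 2058 and 2311. The part of the smooth muscle markers and the actin control in the values of these genes was not tested.

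The rule on names also took 5 genes of C1q and tumour necrosis factor related proteins, secreted factors that share the globular domain of C1q and are no subunits of it. C1QTNF3, an adipokine also called cartonectin, read 112 and 71.3 in NC pigs, 70.7 and 35.9 in MR pigs, and 131 and 79.8 in MRV pigs. Both MR arrays were below all others, with log2 differences of -0.66 for MR minus NC (SE 0.34, limma adjusted p = 0.999955) and 0.82 for MRV minus MR (SE 0.34, limma adjusted p = 0.695), the widest of the 47 genes in either comparison. Without MR2 these were -0.29 and 0.45, without NC1 the former was -0.38, and without MRV1 the latter was 0.51. The adipocyte markers (3 of 5 measured) summed to 3046 and 2173, 1700 and 2229, and 1821 and 953, a different order.

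C1QTNF2, a secreted protein of the same family, read 95.0 and 58.4 in NC pigs, 81.3 and 103 in MR pigs, and 53.6 and 55.7 in MRV pigs. Both MRV arrays were below the other 4, by -0.61 from MR (SE 0.21, limma adjusted p = 0.655) and by -0.36 from NC (SE 0.21, limma adjusted p = 0.905). Without NC1 the latter was -0.075. C1QTNF5 read from 162 to 219 with both MR arrays above NC (0.24, SE 0.15), C1QTNF6 from 132 to 176 with both MRV arrays above the others (0.20 from MR, SE 0.12), and C1QTNF12 from 86.5 to 118 with all groups overlapping.

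The choice of probe set mattered beyond B2M. Of the 13 genes with several tested probe sets, all tested probe sets of a gene had the same sign for 7 genes in MR minus NC, for 4 in MRV minus MR and for 6 in MRV minus NC. The median over the 47 genes turned with the NC animals: for MR minus NC it was 0.12 without NC1 and -0.093 without NC2, and for MRV minus NC 0.12 without NC1 and -0.10 without NC2.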

How the data were processed

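The deposited files give a linear intensity for each probe set on each array, already normalized between arrays by the authors, as judged from the alike array medians. MAS5 and RMA are named, with no version, in the submitters' processing notes; which of them made the values was not stated there. Probe sets were named from the platform annotation, and 69 of 69 genes were found by Entrez ID in RefSeq's Sscrofa11.1 table. A gene's probe set was the one with the highest mean of log2 values. Values were tested as log2(intensity + 16), the scale of every log2 difference, which understates changes of dim genes. Probe sets below the 40th percentile of that mean (60.8) were not tested. limma 3.58.1 in R 4.3.3 (lmFit, eBayes) was fitted to all 6 arrays with group means, leaving 3 residual degrees of freedom, with Benjamini-Hochberg adjustment of p-values over 14399 probe sets. The number of arrays limits the precision. The labels count 6 separate pigs, so spread within a group mixes animal and technical variation. Named with values were genes past the threshold, up to 12 per comparison with no overlap and a log2 difference of at least 0.3, up to 3 per role with the highest means, and a list of defining genes; others are given after their values were seen. The genes, roles and lists were chosen with earlier results of these data known. The fit was tested on simulated data. Alternatives were other pseudocounts, filters, probe set rules and normalization, an intensity trend, a replicate block, the 28S control as covariate (added after seeing the data, as was the highest arithmetic mean), the 4 arrays compared, and each array left out.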

Additional observations from a re-analysis of the deposited data

How the results depend on the processing

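Over 17 alternatives per comparison, 0 of the genes passed the threshold in any, with 0.206 the smallest limma adjusted p of any of them. The 18 log2 differences of at least 0.3 without overlap kept their sign in every alternative run, but not their size. They were chosen because the arrays of the compared groups do not overlap. Leaving out an array, another pseudocount or another fit of the same probe set therefore could not reverse a sign. Only quantile normalization, the ribosomal control as covariate and, for genes with several tested probe sets, averaging over them could have done so. Averaged over its probe sets, CD47 for MRV minus MR was -0.0061, and CD93 for MRV minus MR was -0.16. CD59 and CD82 for MRV minus NC were -0.032 and -0.081. Each of these genes has a probe set with the other sign in that comparison. The median over the tested genes changed sign: leaving out each array in turn gave -0.0932 to 0.1225 for MR minus NC, -0.05186 to 0.0848 for MRV minus MR and -0.1036 to 0.1164 for MRV minus NC; the ends for the comparisons with NC came from leaving out NC2 and NC1. With a replicate block 0 members were called; the medians (0.02233, 0.02146 and 0.03181) cannot change under it, since each number occurs in every group. The replicate numbers are shared by the groups, but the correlation of same-numbered deviations was 0.343 for NC with MR, 0.206 for NC with MRV and 0.0179 for MR with MRV, so the numbers were not taken as pairs. With 2 arrays per group, where a left-out array leaves a lone one that is assumed to vary like the other groups, differences of the size seen here could not be told from the spread between animals.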
